A study of Mus musculus with 5 samples.

Results

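The cells described here are 304 alpha cells, which make glucagon, from mouse pancreatic islets that carried 1 knockout allele of Gcgr, the gene of the glucagon receptor (heterozygous islets). They were chosen by the authors' own annotation, as the cells typed as alpha by Gcg that also lay in graph-based cluster 1.2. The rule found 306 cells, of which 2 predicted doublets were removed, among 1334 cells in the heterozygous table and 6645 cells in the series. Another 2 cells typed as alpha lay in cluster 1.7 and were not members. The series also holds 1 library of islets homozygous for the knockout and 3 libraries of tumors from GCGR knockout animals, and the labels name no treatment. No strain, age, sex or number of pooled animals is stated for the islets, and no islet library with 2 intact receptor alleles was analysed here, so the heterozygous cells stand for carriers and not for wild type. All libraries were made from dissociated cells with the Chromium 3′ kit, which tags each captured polyadenylated RNA with a unique molecular identifier (UMI).

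Alpha cells sit beside the insulin-producing beta cells and the somatostatin-producing delta cells, and release glucagon when blood glucose is low or amino acids are high. Among their known transcription factors are the Iroquois homeobox proteins Irx1 and Irx2. Proglucagon is cut to glucagon mainly by the convertase Pcsk2, whereas its relative Pcsk1 releases other peptides from the same precursor. Glucagon acts through its receptor on the liver to raise glucose output and amino acid breakdown, and alpha cells in turn respond to circulating amino acids, among them glutamine carried by Slc38a5.

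The 304 alpha cells held 3209346 UMIs, with a lowest, median and highest depth of 1840, 10018.5 and 28170 UMIs per cell, a median of 2425.5 genes and a median mitochondrial share of 0.618%. They were compared with 686 beta cells (17272013 UMIs), 62 delta cells (448579), 195 endothelial cells (854119), 33 stellate cells (90008) and 44 macrophages (169244) of the same library. Each level is the sum of a gene's UMIs over the cells of a type, per 1000000 of all UMIs in those cells (CPM), not divided by transcript length, so they are compared between cell types and not between genes. Intervals are exact, at 95%, and cover counting error only, and the 1 heterozygous library allows no test between animals. Since the authors' typing used the same genes, the differences between types describe the cells and test nothing. A gene was called higher or lower where it reached 50 CPM in the higher type and the whole interval of its ratio lay beyond 2-fold.

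Hormone transcripts, with Ttr counted among them, took very different shares of the UMIs in each type. Ttr encodes a thyroxine carrier and not a hormone, but is included wherever the hormones are said to be left out. Gcg, Ins1, Ins2, Sst, Ppy, Pyy, Iapp and Ttr together took 48.12% of the UMIs of alpha cells, 71.37% of beta cells, 39.76% of delta cells and 5.439% of endothelial cells. The median gene stood 1.765 times higher in alpha than in beta cells (log2 0.82, 1916 genes) and at 0.974 times (log2 -0.04) with these 8 transcripts left out of the totals. Against delta cells the median ratio was 0.766 (log2 -0.39), and 0.889 without the hormones. The delta cells include 10 of 62 with insulin above 10% of their UMIs, which were kept in all delta levels. Ratios and calls below are on all UMIs unless stated, and the calls of each gene list are also counted with the hormones left out.

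The cells were typed as alpha by Gcg, so their high Gcg follows from that choice, and the marker levels describe the label without testing it. All 5 alpha markers (Gcg, Irx1, Irx2, Edn3 and Etv1) were called higher in these cells than in beta cells. Against delta cells 4 of the 5 were called higher, all but Etv1. Summed marker levels of the other types compared were low next to those types themselves. Endothelial markers came to 54.53 CPM against 15134 in endothelial cells, stellate markers to 17.14 against 8466, macrophage markers to 188.2 against 111939, and acinar markers to 2.493. Beta cell markers came to 55599.8 CPM against 705229 in beta cells, but endothelial cells held 47842 CPM of them too. Delta cell markers came to 1992 CPM against 154300.6 in delta cells and 595.9 in endothelial cells. Markers of pancreatic polypeptide cells, a type not among those compared, were not low. They came to 34697 CPM, against 1502.7 in beta, 77094.6 in delta and 1066.6 in endothelial cells. Ductal markers came to 139.0 CPM, erythroid markers to 33.96, Schwann cell markers to 21.19, epsilon cell markers to 2.181 and lymphocyte markers to 1.87.

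Proglucagon was the main product of these cells. Gcg stood at 340199.8 CPM (339562 to 340839) in alpha cells, 5214 in beta cells, 7898 in delta cells and 4100.1 in endothelial cells, a ratio of 65.2 (64.8 to 65.7) to beta cells and 43.1 (41.7 to 44.5) to delta cells. Per cell, Gcg took 0.782% of the UMIs in the lowest cell, 33.77% in the median cell and 50.27% in the highest, with quartiles of 27.79% and 39.15%. In the median endothelial cell, which does not make glucagon, it took 0.413%. The Gcg start site lies on mouse chromosome 2 and is shown because this promoter belongs to the transcript that fills a large share of each alpha cell. The window below and the others that follow are 300 bases around the annotated start from RefSeq, build GRCm38.p6, written 5′ to 3′ on the gene's strand. Capitals mark matches, on either strand, to letter patterns that were chosen after the sequences had been seen.
Gcg (chr2:62483604-62483903, minus strand): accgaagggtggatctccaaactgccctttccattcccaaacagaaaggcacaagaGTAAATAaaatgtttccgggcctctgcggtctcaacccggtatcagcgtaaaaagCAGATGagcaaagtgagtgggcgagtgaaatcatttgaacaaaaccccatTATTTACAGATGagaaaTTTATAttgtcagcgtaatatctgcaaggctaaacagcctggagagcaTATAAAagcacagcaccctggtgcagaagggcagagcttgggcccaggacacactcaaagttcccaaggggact
The letters TATAAA occurred at -24 on the gene's strand and, reversed, at -72 from the start, where 13.6% of 32851 RefSeq promoter windows held them on either strand. CAGATG occurred at -139 and -83 (17.2% of windows), and TATTTAC at -89 and, reversed, at -194 (3.04% of windows). The TATTTAC and CAGATG matches at -89 and -83 share 1 base. Matches are a description of the letters only.

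Only a small set of genes was higher in alpha cells than in every other typed class. Of 1837 genes at 50 CPM or more in alpha cells, 14 (0.762%) were called against beta, delta, endothelial, stellate and macrophage cells at once, and 20 of 3551 (0.563%) with the hormones left out of the totals. They included Gcg, the thyroxine carrier gene Ttr, the 3 thymosin genes Tmsb15l, Tmsb15b2 and Tmsb15b1, the crystallin gene Cryba2, the secreted Wnt antagonist gene Sfrp5, the protease gene Pappa2, the noncoding RNA Snhg11, the complement gene C8b, the amino acid transporter gene Slc38a5, the transcription factor gene Irx2, and the endothelin gene Edn3. Leaving the hormones out kept 12 of them, since Gcg and Ttr are themselves among the transcripts left out, and added Slc7a2, Gfra3, Irx1, Kcnk3, Aard, Map3k15, Wnk3 and Ndst4. Among cells of 5000 UMIs or more, which leaves fewer cells of the shallow types, 4 were called (Gcg, Ttr, Tmsb15l and Tmsb15b2), and 7 of the 14 were called after the endothelial UMIs per cell were subtracted. Ttr stood at 49809 CPM in alpha cells against 2234 in beta and 1585.0 in delta cells, 22.3-fold and 31.4-fold. Pappa2, which cleaves insulin-like growth factor binding proteins, stood at 291 CPM (272.7 to 310.3) against 17.9 in beta and 35.7 in delta cells. Sfrp5 was at 382 CPM against 21.9 and 91.4, and Cryba2 at 478.6 against 37.5 and 100.3. C8b, part of the terminal complement complex, was at 125.3 CPM against 9.79 and 33.4, with no UMI in endothelial cells, which makes it at least 35.7-fold higher than there. Edn3 stood at 83.51 CPM, 72.1-fold (45.8 to 120.0) above beta and 12.5-fold (4.23 to 60.9) above delta cells. The lower bounds for the genes at the end of the set rest on few UMIs in stellate cells and macrophages: Edn3 and Irx2 had none there, and their lower bounds against stellate cells were 2.02 and 2.09. Irx1, at 69.48 CPM with a lower bound of 1.11 against stellate cells, fell outside.

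**Figure D1:**
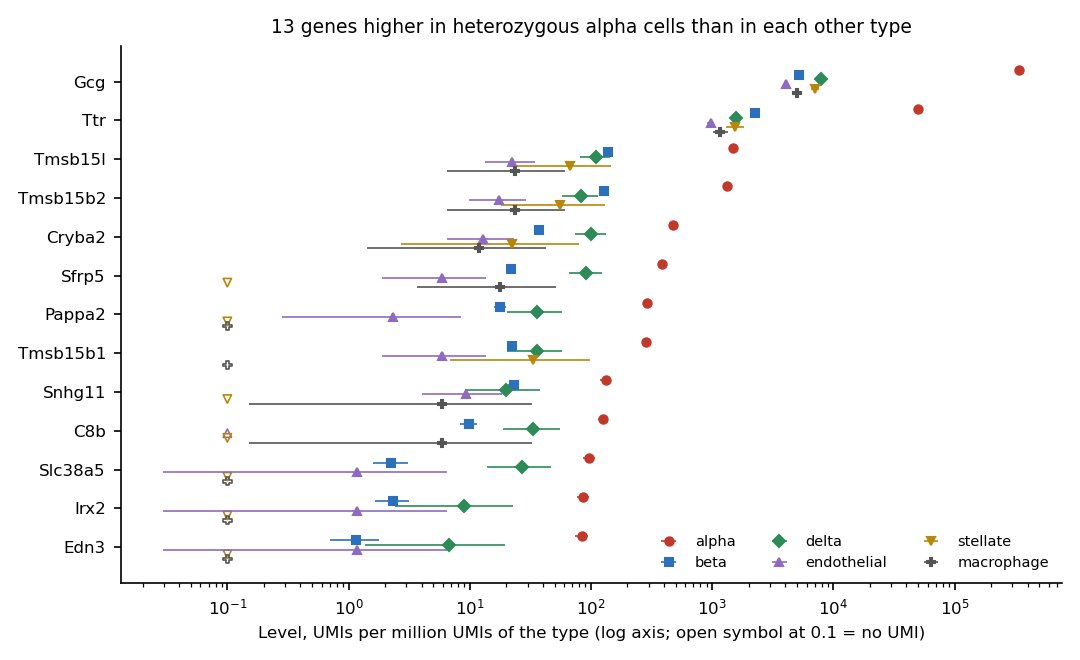
Levels of 13 of the 14 genes (rows) in 6 cell types of the heterozygous library, in CPM on a log axis with exact 95% intervals for counting error. Alpha cells (red circles) are the highest symbol in every row, from Edn3 at 83.51 CPM to Gcg at 340199.8, and open symbols mark types with no UMI.

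The genes that came next, short of that bound in at least 1 class, were mixed in kind. The kinase gene Map3k15 stood at 141.5 CPM against 18.5 in beta and 46.8 in delta cells, and the potassium channel gene Kcnk3 at 83.51 against 2.43 and 24.5. Wnk3, a kinase of chloride cotransporters, was at 69.17 CPM against 2.55 and 13.4. Dapl1 was at 147.4 CPM against 76.1 in beta and 31.2 in delta cells, and Nap1l5 at 173.6 against 43.4 and 62.4. Against beta and delta cells alone, 32 of 1837 genes (1.74%) were called, or 50 (1.41%) with the hormones left out. These included Irx1, Slc7a2, the lipoprotein lipase gene Lpl at 365.8 CPM (54.8 in beta and 44.6 in delta cells) and the mitochondrial gene Higd1a at 111.5 (1.16 and 11.2).

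The Tmsb15 genes, which encode small actin-binding proteins of the beta-thymosin family, cannot be read as 3 separate results. In RefSeq, Tmsb15l (chromosome X, 136954988 to 136976874) spans both Tmsb15b2 (136954988 to 136957979) and Tmsb15b1 (136974022 to 136976874), and reads from shared sequence could be counted for more than 1 of them or split. Tmsb15l stood at 1472 CPM, Tmsb15b2 at 1333.0 and Tmsb15b1 at 283.9 in alpha cells, against 137.3, 128.6 and 22.4 in beta cells. The promoter windows of the copies are shown to make the likeness visible. Tmsb15l and Tmsb15b1 share 1 window, and capitals mark the bases at which the windows differ where they overlap.
Tmsb15l (chrX:136976825-136977124, minus strand): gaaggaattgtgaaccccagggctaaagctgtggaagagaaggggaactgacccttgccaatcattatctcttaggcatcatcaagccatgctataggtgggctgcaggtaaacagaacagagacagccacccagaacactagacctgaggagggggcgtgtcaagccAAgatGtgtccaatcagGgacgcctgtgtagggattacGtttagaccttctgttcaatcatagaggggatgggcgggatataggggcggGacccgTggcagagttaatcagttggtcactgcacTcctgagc
Tmsb15b2 (chrX:136957930-136958229, minus strand): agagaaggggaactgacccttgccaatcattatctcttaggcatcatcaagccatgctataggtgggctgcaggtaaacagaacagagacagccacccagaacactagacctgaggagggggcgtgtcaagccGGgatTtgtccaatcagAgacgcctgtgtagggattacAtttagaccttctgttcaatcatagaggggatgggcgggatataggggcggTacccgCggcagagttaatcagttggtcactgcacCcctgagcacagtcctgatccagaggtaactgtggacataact
Aligned with an offset of 35 bases, the windows overlapped over 265 bases, of which 257 (97.0%) were identical and 8 differed. The letters TGTTTAC occurred, reversed, in both windows, as in 3.65% of all promoter windows. Tmsb4x, the widely expressed family member, was also called higher in alpha than beta and delta cells, at 2184 CPM against 466.0 and 646.5, but stood at 5476 in endothelial cells and 16751 in macrophages.

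The transcription factors separated into those of the alpha lineage and those shared by endocrine cells. Of the 6 alpha cell factors listed that the table holds, 5 reached 50 CPM and all 5 were called higher than in beta cells, on either scale, where 26.6% of 1916 genes were called higher and 2.77% lower (4.96% and 7.57% of 4399 with the hormones left out). Against delta cells 4 of the 5 were called higher on either scale. Of 16 genes listed for alpha cells, such as Gc, Slc7a2 and Wnk3, 12 could be compared with beta cells and 10 were called higher, or 8 of 11 with the hormones left out, and 6 of 12 were called higher than in delta cells, or 4 of 11. Irx1 stood at 69.48 CPM, 46.2-fold (30.7 to 72.2) above beta cells, and Irx2 at 86.31, 37.3-fold (26.7 to 53.3) above them. Both belong to the Iroquois homeobox family. Etv1, an ETS factor, stood at 198.8 CPM against 4.46 in beta cells but 104.8 in delta cells, a ratio of 1.90 (1.41 to 2.61) to the latter, so it did not set alpha apart from delta cells by the rule used. Pou3f4, the POU factor best known from fetal alpha cells, had 10 UMIs in all.

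These factors were found in a part of the cells only, as low transcripts are. With each cell thinned to 5000 UMIs (259 cells, with 45 shallower ones left out), Etv1 was found in 62.93% of alpha cells, Irx2 in 33.59%, the peptide gene Edn3 in 28.96% and Irx1 in 25.48%. The same shares in 680 beta cells were 1.324% for Etv1, 1.029% for Irx2, 0.735% for Edn3 and 0.441% for Irx1. Without thinning, Irx2 was found in 53.29% of alpha cells (median depth 10018.5) and in 0.513% of endothelial cells (median depth 3587). The Irx2 promoter window is shown beside that of Gcg because it also holds CAGATG, once, at -74.
Irx2 (chr13:72628570-72628869, plus strand): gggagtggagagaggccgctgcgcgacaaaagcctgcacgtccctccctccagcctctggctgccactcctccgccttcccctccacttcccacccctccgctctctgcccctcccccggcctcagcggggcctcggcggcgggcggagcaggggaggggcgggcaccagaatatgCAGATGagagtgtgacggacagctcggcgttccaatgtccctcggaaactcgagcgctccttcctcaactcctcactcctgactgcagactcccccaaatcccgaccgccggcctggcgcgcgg
No other of the 12 promoter windows searched for the set of 14 held CAGATG, a match count that says nothing about binding. The window of Ttr was not among the 12, and Tmsb15l and Tmsb15b1 entered with the same window.

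Of 14 factors shared by islet endocrine cells, 9 could be compared with beta cells, and on all UMIs Isl1 was called higher and Mlxipl, the carbohydrate response factor, lower. On the scale without hormones 13 could be compared, the Isl1 call was lost (ratio 1.798), Fev was called higher, and Mlxipl and Insm1 were called lower. Against delta cells 2 of 10 were called lower on all UMIs and 1 of 13 with the hormones left out, and none higher. Isl1 stood at 222.2 CPM in alpha, 68.2 in beta and 452.5 in delta cells. Pax6 differed little from beta cells, at 199.4 CPM against 183.3, a ratio of 1.09 (0.998 to 1.19). Fev, a factor of serotonin neurons and endocrine progenitors, was at 43.62 CPM against 1.22 in beta and 49.0 in delta cells, below the level minimum on all UMIs. Among the 4 beta and delta factors, Mafa had no UMI in alpha cells, where 3 UMIs would be 0.935 CPM, Pdx1 had 4 UMIs (1.246 CPM against 15.9 in beta cells), Hhex 3.116 CPM against 280.9 in delta cells, and Nkx6-1 12.78 CPM against 89.2 in beta cells. Nkx6-1 was called lower than in beta cells and Hhex lower than in delta cells, and Pdx1 was also called lower than in beta cells with the hormones left out.

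The pancreatic polypeptide gene Ppy and its relative Pyy were the peptide genes with the highest variance over mean from cell to cell. Ppy stood at 15198 CPM and Pyy at 19499 in the summed alpha cells, 17.8-fold and 30.1-fold above beta cells, but at 0.420 and 0.477 times the level of delta cells. Per cell, Ppy took 0 to 55.59% of the UMIs with a median of 0.185%, against 0.0631% of the summed UMIs of endothelial cells. It passed 1% in 59 cells, 5% in 18 and 10% in 10, and the 18 cells held 59.09% of all its UMIs. Pyy was spread more evenly, from 0.0181% to 13.24% with a median of 0.949%. Over the 259 cells thinned to 5000 UMIs, Ppy had a variance over mean of 706.8, against a median of 1.038 over 2303 genes, with a lowest, median and highest count of 0, 11 and 2840. Pyy followed at 149.4, Gcg at 93.49, Ttr at 89.05, Malat1, a nuclear noncoding RNA, at 42.79 and Sst at 31.04. Variance over mean tends to rise with a gene's level, so this order does not rank variation relative to level. The thinned means were 73.83 UMIs for Ppy, 93.85 for Pyy, 1705.6 for Gcg and 5.293 for Sst. Ppy and Pyy shares ranked alike among the cells (Spearman 0.63), while Gcg ranked weakly against both (-0.19 each) and Gcg with Ttr at 0.12. These correlations are over 259 cells of 1 library, whose counts share a fixed total, and are given as descriptions.

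**Figure D2:**
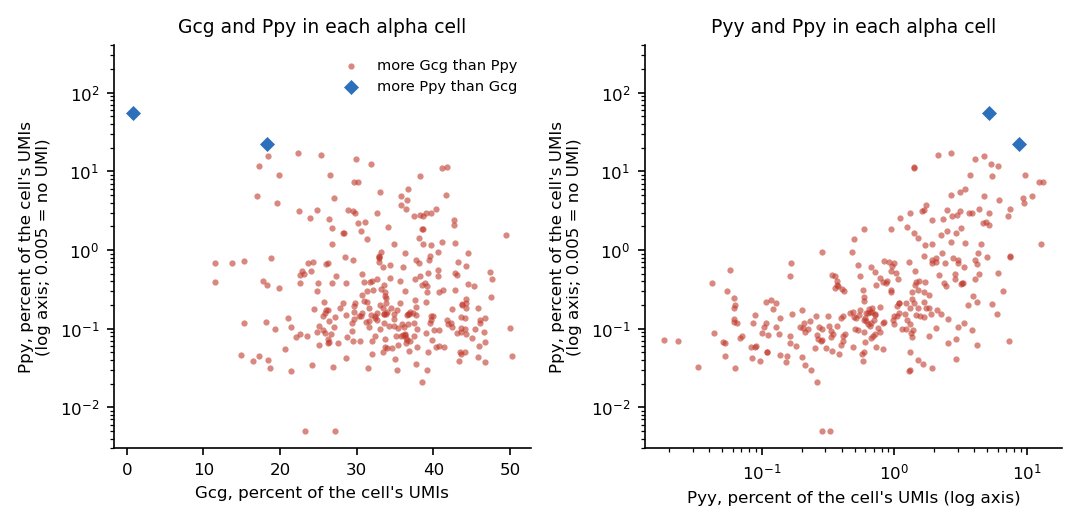
Each point is 1 of the 304 alpha cells, with Ppy as a percent of the cell's UMIs (log axis) against Gcg (left, linear axis) and Pyy (right, log axis). Ppy ran from no UMI to 55.59% while Gcg stayed above 10% in 303 cells, and the 2 cells with more Ppy than Gcg are blue diamonds.

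A pair of member cells held more Ppy than Gcg and were singled out after the values were seen. They differed from each other. The first had 10617 UMIs, of which Ppy took 55.59% and Gcg 0.782%, and it goes against its alpha label. The second had 13949 UMIs, of which Ppy took 22.5% and Gcg 18.3%, close to the 5th percentile of Gcg over all alpha cells (18.44%). The pair held no UMI of Irx1 or Irx2, but their depth allows up to 150.2 CPM of each, above the level of the alpha cells as a whole, so that says nothing about them. The 2 cells of cluster 1.7 had Ppy at 421885 CPM and Gcg at 6731. Without the pair, the Ppy variance over mean was 309 and the 14 genes were the same. The other 16 cells with over 5% Ppy had more Gcg than Ppy, at 292787 CPM against 345120.3 in the 286 cells with less Ppy. Irx1 stood at 21.04 CPM (5.73 to 53.9) in the 16 cells against 73.1 in the 286, and Irx2 at 52.6 (25.2 to 96.7) against 89.2. Edn3 was at 42.08 CPM (18.17 to 82.92) against 86.49, and Ttr at 26797 against 51587. Etv1 went the other way, at 268.3 CPM (199.8 to 352.7) in the 16 cells against 194.0. Pappa2 (284.1 against 293.2), Sfrp5 (384.0 against 384.3) and Cryba2 (457.7 against 482.2) stood at like levels. These cells were grouped by Ppy itself, and no test was made.

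Of 24 peptide genes listed, 9 could be compared with beta cells: Gcg, Ppy, Pyy and Edn3 were called higher and Ins1, Ins2, Iapp and Ucn3 lower. Outside the hormones 4 could be compared on the other scale, and Edn3 was called higher and 3 lower, Ucn3 among them. Against delta cells 2 of 10 were called higher (Gcg and Edn3) and 7 lower, or, with the hormones left out, 1 of 3 higher and 1 lower. Sst was not called, at 1019 CPM in alpha, 684.9 in beta and 489.4 in endothelial cells. No UMI was found of Gal, Gip, Tac1, Nmu, Crh or Adcyap1, and the secretin gene Sct had a level of 1.558 CPM. Ucn3, the late beta cell peptide urocortin, was at 28.04 CPM in alpha cells and 28.1 in endothelial cells.

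Insulin transcripts in the alpha cells stood near their endothelial level, though Ins1 and Ins2 lay above it by the interval. Ins2 stood at 38155 CPM in alpha, 33442 in endothelial and 403052 in beta cells. The median alpha cell held 377 Ins2 UMIs (3.697% of its UMIs), the median endothelial cell 126 (3.471%) and the median beta cell 11053.5 (41.8%). In every alpha cell some Ins2 was found, with a lowest count of 83. The ratio of Ins1 to Ins2 UMIs was 0.335 in alpha cells, 0.338 in endothelial cells and 0.626 in beta cells. The ratio of Iapp to Ins2 UMIs, by contrast, was 0.1186 in alpha cells, nearer to the 0.1212 of beta cells than to the 0.0901 of endothelial cells. Log Ins2 UMIs rose with log depth at slopes of 0.91 in alpha and 0.82 in endothelial cells. Insulin passed 10% of the UMIs in 4 alpha cells, with a highest value of 18.94% and a median of 4.97%. Leaving these 4 cells out kept the same 14 genes.

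**Figure D3:**
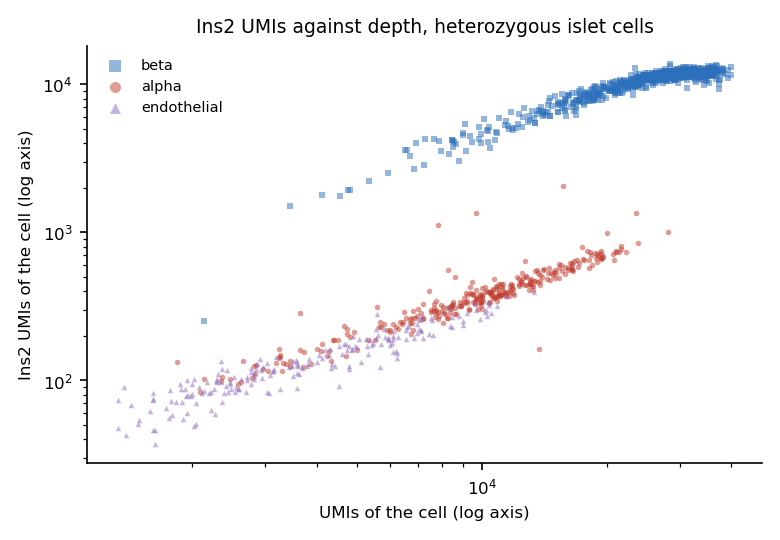
Ins2 UMIs of each cell against the cell's total UMIs, both on log axes, for beta cells (blue squares), alpha cells (red circles) and endothelial cells (purple triangles) of the heterozygous library. Alpha cells, with a median of 377 Ins2 UMIs, continue the band of the endothelial cells, with a median of 126, and most lie far below beta cells of like depth.

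Of 9 prohormone processing genes, 6 could be compared with beta cells. Pcsk2, Pcsk1n, Scg5 and Pam were called higher, where 26.6% of all genes were, and Pcsk1 was called lower. With the hormones left out, however, only Pcsk1 was called among 8. Against delta cells Pcsk1 was the 1 gene called, lower, of 6 or of 8 with the hormones left out. Pcsk2 stood at 6149 CPM in alpha, 2158 in beta and 3714 in delta cells, a ratio of 2.85 (2.80 to 2.90) to beta cells and 1.57 without the hormones. Pcsk1 stood at 9.971 CPM against 116.3 in beta and 69.1 in delta cells, close to the 8.20 in endothelial cells. Scg5, which encodes the Pcsk2 chaperone 7B2, was at 1509 CPM against 534.8 in beta cells.

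Of the 5 granins, proteins that help form secretory granules, 4 could be compared with beta cells and only Scg2 was called, lower, as it also was against delta cells, on either scale. Scg2 stood at 828.5 CPM against 2135 in beta and 3596 in delta cells, with ratios of 0.388 and 0.230. Chgb was at 511.3 CPM against 352.8 in beta cells and 3467 in delta cells, and was called lower than in the latter. Chga stood at 6863 CPM in alpha, 4674 in beta and 5328 in delta cells and was not called.

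Of 27 exocytosis genes, 17 could be compared with beta cells, none was called higher and Sytl4, a Rab effector of granules, was called lower (4.051 CPM against 68.3). Without the hormones in the totals 24 could be compared, and Sytl4 and Rab3b were called lower and none higher. Against delta cells, where 1.4% of 2576 genes were called higher and 6.09% lower (1.37% and 3.79% of 4437 with the hormones left out), 18 could be compared. Slc30a8, the granule zinc transporter, was called higher at 407.9 CPM against 71.3, as was the granule priming gene Cadps at 69.17 against 13.4. Rab3b was called lower, at 18.38 CPM against 160.5. The same 3 were called among 21 with the hormones left out. The fusion proteins Snap25 (79.14 CPM), Vamp2 (129.0) and Syt7 (132.7) were not called against either type.

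Genes of glucose handling and excitability differed at single points. Of 24 listed, 7 could be compared with beta cells, with 2 called higher and 2 lower. Of all genes, 26.6% were called higher and 2.77% lower. With the hormones left out 15 could be compared, with 3 higher and 2 lower, where 4.96% and 7.57% of all genes were. The glucose transporter gene Slc2a2 stood at 14.02 CPM against 171.4 in beta cells, and G6pc2, the islet glucose-6-phosphatase, at 67.3 against 471.2. Both were called lower, while the acid-sensitive potassium channel gene Kcnk3 and Dpp10, an accessory subunit of potassium channels, were called higher at 83.51 CPM against 2.43 and at 56.09 against 5.50. Kcnj11 (55.15 CPM against 28.6) and Abcc8 (252.7 against 197.4), the subunits of the ATP-sensitive potassium channel, were not called. Against delta cells none of 10 was called higher on all UMIs and Scn9a and Dpp6 were called lower, Dpp6 at 8.101 CPM against 111.5. With the hormones left out 2 of 15 were called higher, Kcnk3 among them, and 2 lower, Dpp6 but not Scn9a.

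Most receptor genes lay near the limit of detection. Of 34 listed, 10 had no UMI in alpha cells and 4 could be compared with beta cells, of which Gria2, Gpr119 and Ffar4 were called higher and the interleukin receptor gene Il6ra was not, where 26.6% of all genes were called higher. On the scale without hormones 11 could be compared. Gria2 and Gpr119 were again called higher, as were Oxtr and Gria3, the Ffar4 call was lost (ratio 1.76), and 3 were called lower, Gipr among them. Gria2, a glutamate receptor subunit, stood at 198.2 CPM against 9.96 in beta and 129.3 in delta cells. Gpr119, a lipid receptor, was at 66.37 CPM against 7.18 and 11.2, and was the 1 of 6 called higher than in delta cells on all UMIs, with 1 lower. With the hormones left out 2 of 10 were called higher, Gpr119 among them, and 1 lower. Below the level minimum on all UMIs, the oxytocin receptor gene Oxtr was at 44.25 CPM against 2.61 in beta and 26.8 in delta cells, and the vasopressin receptor gene Avpr1b at 19.32 against 0.637 and 2.23. The somatostatin receptor genes Sstr2 and Sstr3 stood at 13.4 and 37.08 CPM. The glucagon receptor itself had 8 UMIs in alpha cells, 2.493 CPM (1.08 to 4.91), against 7.18 in beta and 2.34 in endothelial cells, and the incretin receptor genes Glp1r and Gipr stood at 0.312 and 22.12 CPM.

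Amino acid transport set the alpha cells apart at a few transporters. Of 27 transporter genes, 10 could be compared with beta cells, and Slc38a5, Slc7a2, Slc7a8, Slc3a2 and Slc16a10 were called higher, where 26.6% of all genes were. Of these, Slc38a5 and Slc7a2 remained with the hormones left out, where 4.96% of all genes were called higher. On that scale 13 could be compared and 1 was called lower. Against delta cells 10 could be compared, and Slc38a5, Slc7a2 and Slc7a8 were called higher, joined by Slc38a4 among 11 with the hormones left out. Slc7a2, which carries arginine and lysine, stood at 295.4 CPM against 63.3 in beta and 62.4 in delta cells, with ratios of 4.66 (4.27 to 5.09) and 4.73 (3.25 to 7.16). Slc7a8, a carrier of large neutral amino acids, was at 119.0 CPM against 37.0 and 26.8, and its partner chain gene Slc3a2 at 152.1 against 57.7 and 64.7, but at 419.1 in endothelial cells. Slc16a10, a carrier of aromatic amino acids, was at 158.6 CPM against 40.8 and 98.1. Slc38a2 (67.93 CPM) and Slc38a4 (64.19) were not called against either type on all UMIs, and Slc38a3, Slc7a11, Slc43a1 and Slc6a15 had no UMI. Of 26 amino acid metabolism genes, 4 could be compared with beta cells, of which 3 were called higher, Glud1 and Arg1 among them, against 26.6% of all genes. Without the hormones in the totals 9 could be compared, with the same 3 higher and 3 lower, Glul among them. Against delta cells 1 of 5 was called higher and 1 lower, and likewise of 7 with the hormones left out. Glud1, glutamate dehydrogenase, stood at 87.25 CPM against 17.4 in beta and 60.2 in delta cells. Arg1, arginase, was at 78.52 CPM against 4.52 in beta cells but 599.7 in delta cells. Arg1 was called lower than in delta cells. Glul, glutamine synthetase, was at 96.9 CPM against 133.0 in beta cells, a ratio of 0.729, or 0.402 with the hormones left out.

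Slc38a5, on chromosome X, was low in most heterozygous alpha cells and high in very few. It had 311 UMIs in all, 96.9 CPM (86.4 to 108.3), against 2.26 in beta, 26.8 in delta and 1.17 in endothelial cells. UMIs were found in 125 of 304 cells, of which 74 held 1, 27 held 2 and 24 held 3 or more. With cells thinned to 5000 UMIs the share was 22.78% (17.8 to 28.4) of 259 alpha cells, 0.882% of 680 beta cells and 15.91% (6.64 to 30.1) of 44 delta cells, whose interval overlaps that of alpha cells. Thinning was a single random draw, whose error these intervals leave out. A new draw without the 4 richest alpha cells gave a higher share, 25.49% of 255. Unthinned shares were 41.12% in alpha, 4.956% in beta and 0.513% in endothelial cells, at median depths of 10018.5, 26444 and 3587 UMIs. In 4 cells 37, 24, 22 and 17 UMIs were counted, 100 of the 311 (32.15%), and no other cell held more than 8. These 4 were picked out after the values were seen. Without them the level was 67.2 CPM. Their own levels, 1778, 1363, 1434 and 969 CPM, lay between the quartiles (280.0 and 1405) of cluster 2.1 or above them; that is, the larger alpha cluster of the homozygous library, with a median of 761.5 CPM. Of all 304 cells, 6 lay above that median and 20 above the lower quartile. Some of the 20 held 1 UMI in a shallow cell, of 1840 to 3441 UMIs, where 1 UMI alone passes that quartile. The median of homozygous cluster 2.2 was 80.7 CPM. The 4 cells held 1 UMI of Sct, which stood at 71.8 CPM in cluster 2.1 and 13.0 in cluster 2.2, and 1 of Ttyh1 and 0 of Mest. Gcg took between 28.18% and 32.63% of the UMIs of these cells, between the quartiles of all alpha cells. Across cells, Slc38a5 ranked with Gcg at -0.06 and with Ppy at 0.10. Its promoter window is given for comparison with that of Gcg, with the letters TGCTGA (19.5% of windows) in capitals at -246.
Slc38a5 (chrX:8271131-8271430, plus strand): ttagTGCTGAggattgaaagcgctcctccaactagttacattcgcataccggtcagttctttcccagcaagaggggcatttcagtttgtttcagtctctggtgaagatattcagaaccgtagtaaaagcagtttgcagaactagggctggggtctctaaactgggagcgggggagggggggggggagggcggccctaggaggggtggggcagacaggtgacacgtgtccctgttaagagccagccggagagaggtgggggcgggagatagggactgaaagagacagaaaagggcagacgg
None of the other letter patterns searched was in this window. A last pattern, TAATTA, found in 5.29% of all windows, was in none of the 12.

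**Figure D4:**
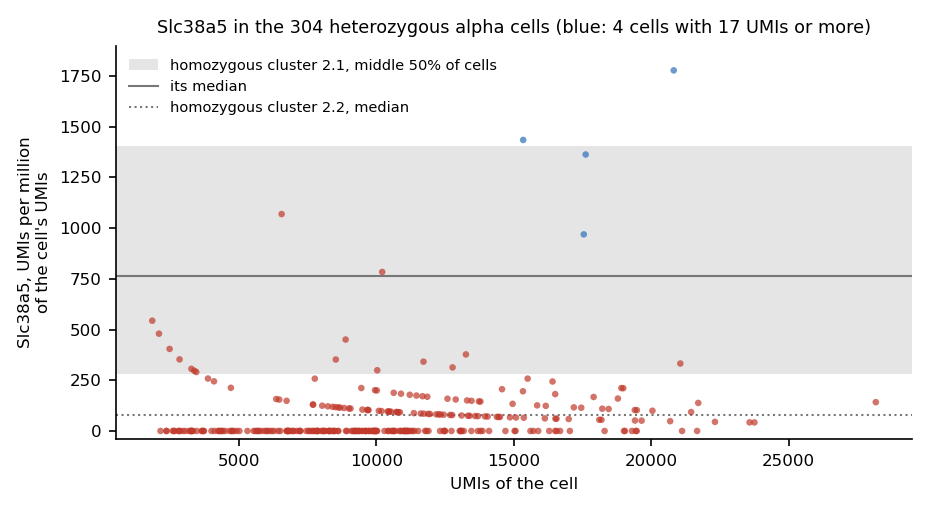
Slc38a5 in each of the 304 heterozygous alpha cells (CPM of the cell) against the cell's total UMIs, on linear axes. The grey band and line are the range between quartiles and the median (761.5) of homozygous cluster 2.1 and the dotted line the median of cluster 2.2 (80.7), and the 4 blue cells, with 17 UMIs or more, reach the band or lie above it.

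Genes of plasma carrier proteins were split between alpha and delta cells. Of the 9 found, 5 could be compared with beta cells, and Ttr, Gc and Rbp4 were called higher, where 26.6% of all genes were. On the scale without hormones Gc, Rbp4 and Apoa2 were called higher of 5. Gc, the vitamin D binding protein, stood at 156.4 CPM against 15.8 in beta and 111.5 in delta cells. Rbp4, which carries retinol bound to transthyretin, was at 969.0 CPM against 43.2 in beta cells but 5214 in delta cells. Against delta cells Ttr was called higher and Rbp4, Apoe and Clu lower, and Clu stood at 69.8 CPM against 896.2. The Apoe call was lost with the hormones left out. Per cell, Ttr took 0.349% to 18.31% of the UMIs with a median of 4.03%. Gpx3, the secreted glutathione peroxidase, was at 4430.2 CPM against 159.0 in beta and 2220.3 in delta cells.

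Immediate early genes, fast transcriptional responders to stimuli that include tissue dissociation, were often higher than in beta cells on all UMIs. Of 19 such genes and heat shock genes, 14 could be compared, and 11 were called higher than in beta cells, where 26.6% of all genes were. Without the hormones in the totals 4 of 17 were called, Fos, Jun, Atf3 and Zfp36, where 4.96% of all genes were. Against delta cells none of 14 was called on all UMIs, and of 17 with the hormones left out Atf3 was called higher. Fos stood at 1412 CPM in alpha, 324.3 in beta, 936.3 in delta and 1394 in endothelial cells, and Jun at 689.9, 143.5, 494.9 and 1451. The mitochondrial share, 0.618% in the median alpha cell and 0.567% in the median beta cell, differed little. Per cell, the Gcg and Fos shares ranked at -0.28. The part of cell isolation in these levels was not tested.

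The balance of genes higher and lower than in beta cells turned with the scale. On all UMIs 510 genes were called higher and 53 lower (2.77%), and with the hormones left out 218 higher and 333 lower (7.57%). On all UMIs the median of 4163 genes stood in alpha cells at 0.440 times its endothelial level. A place at or below that level is thus not particular to the genes called lower. Of the 53 genes, 25 stood at or below their endothelial level. By the interval, for 23 the interval of the ratio to endothelial cells held 1, 14 lay below and 16 above. The 16 were Ins1, Ins2, Iapp, Nkx6-1, G6pc2, Scg2, Creg1, Ero1lb, Fkbp11, Gjd2, Insrr, Pclo, Ppp1r1a, Smim1, Syndig1l and Zdhhc2. The imprinted growth factor gene Igf2 stood at 1.558 CPM against 76.3 in beta cells, a ratio of 0.0204 (0.00662 to 0.0478), and the prolactin receptor gene Prlr at 7.167 against 175.8. The cation channel gene Trpm5 stood at 11.84 CPM against 140.0 and the sheddase gene Bace2 at 16.51 against 218.2, while Bace2 was at 87.8 in endothelial cells. Iapp, amylin, was at 4526 CPM in alpha, 48847 in beta and 3013 in endothelial cells.

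Against delta cells 36 genes were called higher and 157 lower, or 61 and 168 with the hormones left out. Ins2 took 3.709% of the UMIs of the median delta cell but 22.75% at the 95th percentile. Insulin passed 10% in 10 of the 62 delta cells. These were not left out, so the delta levels, above all of Ins1, Ins2 and Iapp, include them. Of the 157, 69 stood at or below their endothelial level, where the median of 4163 genes stood at 0.440 times that level. By the interval, 45 held 1, 53 lay below and 59 above the endothelial level. Sst was at 1019 CPM against 148799, a ratio of 0.00685. Dlk1, an imprinted Notch ligand relative, had no UMI in alpha cells, where 3 UMIs would be 0.935 CPM, against 122.6 CPM in delta cells. Ly6h was at 4.051 CPM against 439.2 and Cd24a at 5.297 against 508.3, although endothelial cells held Cd24a at 1407. The phosphatase regulator gene Ppp1r17 and the surfactant protein gene Sftpd had 1 UMI each in alpha cells, against 98.1 and 75.8 CPM in delta cells.

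Against endothelial cells, which served as the level that free RNA can give, 259 of 4226 genes (6.13%) were called higher in alpha cells and 1840 (43.5%) lower. With the hormones left out these were 780 of 5132 (15.2%) and 1194 (23.3%). Against stellate cells 2.49% of 3688 genes were called higher and 26.4% lower (5.25% and 15.0% of 4745 with the hormones left out), and against macrophages 8.84% of 2874 higher and 25.4% lower (18.8% and 13.0% of 4372). The transcript of the red fluorescent reporter tdTomato was in the table and no label names its driver. It stood at 524.4 CPM in alpha, 333.0 in beta, 550.6 in delta, 387.5 in endothelial and 135.9 in macrophage cells, and was called against none of beta, delta and endothelial cells on all UMIs, and higher than in endothelial cells with the hormones left out.

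The same contrasts in the homozygous library, which played no part in choosing these cells, gave mostly the same direction at smaller ratios to beta cells. That library held 1510 alpha, 461 beta, 332 delta, 214 endothelial and 74 stellate cells, with 1 library per genotype and thus no test of the genotype. Of the 14 genes, 9 were also called there against beta, delta, endothelial and stellate cells (macrophages were not typed), where 23 of 1465 genes (1.57%) were called in all, and 42 (2.87%) against beta and delta cells alone, among them 20 of the 32 heterozygous ones. C8b, Edn3, Pappa2, Sfrp5 and Snhg11 were not, yet all 14 had a ratio above 1 to beta cells. Edn3 stood at 6.40 CPM in homozygous alpha cells against 83.51 in the heterozygous, and was not above homozygous delta cells (ratio 0.960). Pappa2 stood at 224.6 CPM with a ratio of 11.5 to beta but 2.18 to delta cells. Of the 510 genes called higher than in beta cells, 277 were called so in the homozygous library (26.7% of 1619 genes there), and of the 53 lower, 31 (3.77% there). Against delta cells these were 25 of 36 (2.8% there) and 75 of 157 (6.36% there).

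Ratios of alpha to beta cells were 65.2 (heterozygous) and 17.4 (homozygous) for Gcg, 46.2 and 15.8 for Irx1, 37.3 and 11.8 for Irx2, and 42.9 and 17.5 for Slc38a5. The Gcg level of the beta cells themselves was 5214 CPM in heterozygous and 18842 in homozygous islets. For genes below 1, Ins2 had ratios of 0.0947 and 0.0174 and Pcsk1 of 0.0857 and 0.0455. Dpp10 (10.2 and 0.862), Mapk15 (2.58 and 0.264) and Fos (4.35 and 0.712) lay on opposite sides of 1. In alpha cells of the heterozygous library Irx1 was at 69.48 CPM and Irx2 at 86.31, and in those of the homozygous library at 120.9 and 85.9. Ppy stood at 15198 CPM in the heterozygous cells and at 28703 and 158939.6 in homozygous clusters 2.1 and 2.2.

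**Figure D5:**
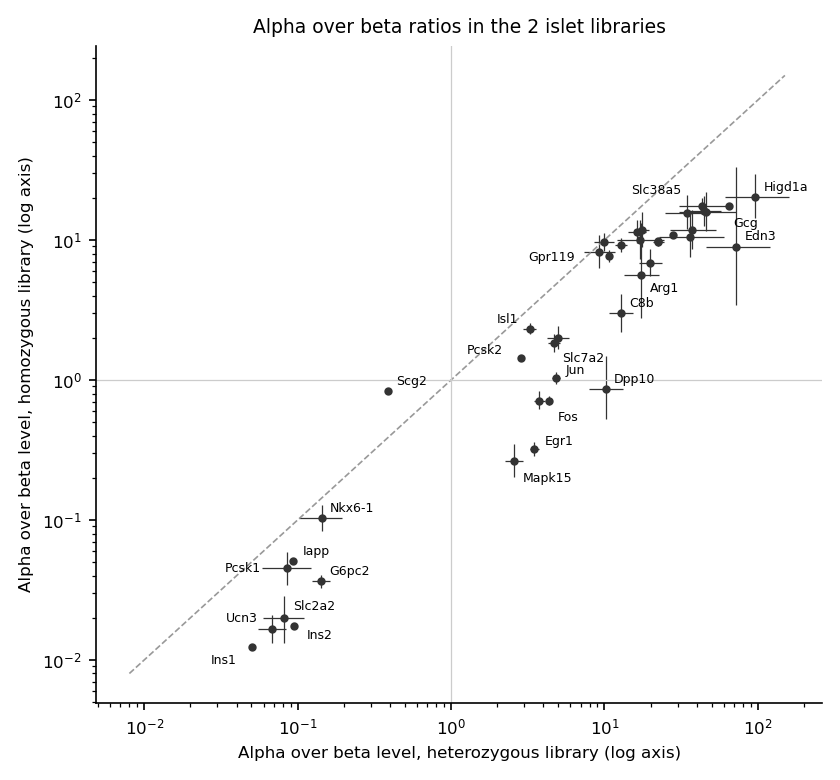
Ratio of alpha to beta level in the heterozygous library (horizontal) and in the homozygous library (vertical) for 41 named genes on log axes, with exact 95% counting intervals and a dashed line of equal ratios. Most genes keep their side of 1 and lie below the dashed line, as Gcg does at 65.2 and 17.4, while Dpp10, Fos, Junb, Egr1 and Mapk15 cross to below 1 in the homozygous library.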

How the data were processed

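RNA of single dissociated islet cells was measured in 1 heterozygous and 1 homozygous library, and the 3 tumor libraries were not used for comparisons. The submitters' processing notes name CASAVA 1.8, bcl2fastq 2.17, GSNAP and build GRCm38, and their roles are not given in the sources used here. The deposited expression values are a signal that the authors scaled per cell, as the values themselves show: a gene's UMIs as a share of all UMIs of that cell, times 9936. The deposited table also gives each cell's total UMI count, from which whole UMIs were recovered (100.0% of values whole within 0.01), summing to a median of 1.0141 times the authors' total in the heterozygous and 1.0196 in the homozygous table. Cell types and clusters are the authors'.

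No cell failed the filters used here (1000 UMIs, 500 genes, at most 20% mitochondrial), and Scrublet in scanpy 1.11.5, at an expected rate of 0.06, marked 8 heterozygous and 1 homozygous doublets, which were removed. UMIs were summed per cell type. Ratios carry exact binomial intervals and levels exact Poisson intervals, both at 95%, for counting error only, from scipy 1.17.1 with numpy 2.4.6, pandas 2.3.3 and Python 3.11.15, and figures were drawn with matplotlib 3.10.9. The call needed 50 CPM in the higher type and an interval beyond 2-fold. In counts simulated for alpha against beta cells over 36529 genes, with counting error alone, it recovered 4.0% of genes changed 2-fold and 100% of those changed 4-, 8- and 16-fold. There were 0 false calls among 1050 unchanged genes. These had equal rates in both types and no shift from hormone share, so that count says nothing about false calls in the real data. A 2-fold change lies at the bound of the call itself, so its low recovery follows from the rule. The types with fewer UMIs, such as delta and stellate cells, were not simulated. The recovery thus does not extend to the genes called against every class. Of 36529 gene columns, 31049 (85.0%) matched RefSeq by gene ID. The islet tables shared 0 cell names.

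The members, 14 gene lists and 13 marker lists were chosen with earlier results of these data known. Of the listed symbols, 3 were not matched. Some genes that the counts include are not reported here by name. Named genes were the 25 with the highest lower bound of their smallest ratio over the other types (50 CPM or more in alpha cells, no cell with over 10% of the UMIs, no predicted symbols), the 12 lowest against beta and 8 lowest against delta cells by upper bound, the 12 most variable and up to 6 per list. Gcg, Irx1, Irx2, Edn3, Etv1, Gcgr and Slc38a5 were always named. Genes above beta and delta cells alone (among them Lpl, Higd1a, Gpx3 and Tmsb4x), the 2 cells with more Ppy than Gcg, the 4 Slc38a5-rich cells and the letter patterns were chosen after their values or sequences were seen. Alternatives were other scalings, level minimums, fold bounds, thinning depths, cell filters and subtraction of endothelial levels.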

Additional observations from a re-analysis of the deposited data

Results flagged for a closer look

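Called ratios of alpha to beta cells lay on opposite sides of 1 in the heterozygous and homozygous libraries for 2 genes, and with 1 library per genotype the difference was not tested. Egr1, an immediate early transcription factor, had a ratio of 3.493 (3.251 to 3.752) in the heterozygous library, from 391.4 CPM in alpha and 112.0 in beta cells, and of 0.3208 (0.2842 to 0.3622) in the homozygous library, from 27.64 and 86.17 CPM. With the hormones left out of the totals the ratios were 1.928 and 0.2109. Rgs2, a regulator of G protein signalling, had ratios of 3.277 (2.706 to 3.959) and 0.4049 (0.3685 to 0.4451), from 55.77 against 17.02 CPM and from 51.97 against 128.4 CPM, or 1.808 and 0.2662 with the hormones left out. Rgs2 in alpha cells thus stood at like levels in both libraries, while in beta cells it stood higher in the homozygous library. In delta cells Egr1 was at 298.7 and 86.91 CPM and Rgs2 at 205.1 and 154.4 CPM.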

How the results depend on the processing

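Counts of genes, in place of 510 higher and 53 lower than beta cells, 36 higher and 157 lower than delta cells, 14 higher than every class, 9 of these also in the homozygous library, and 259 above endothelial cells, changed by over 1.5 times as follows. With the hormones left out of the totals they were 218, 333, 61 higher than delta cells, and 780 above endothelial cells. Among cells of 5000 UMIs or more, 4 genes were above every class, 2 of them also in the homozygous library. A minimum of 20 CPM gave 896 and 97 against beta cells, 287 lower than delta cells and 513 above endothelial cells. A minimum of 100 CPM gave 312 and 29, 21 and 79, and 129. A 1.5-fold bound gave 1013 higher than beta cells, 79 and 319 against delta cells, 26 above every class and 17 also homozygous. A 3-fold bound gave 243 and 35, 21 and 83, 8 and 5. With endothelial UMIs per cell subtracted, 113 were lower than beta cells, 167 and 307 against delta cells and 5 also homozygous. With endothelial CPM subtracted, an alternative added after seeing the data, 127 and 412 were called against delta cells. Neither subtraction gives a value against endothelial cells. The share of alpha cells with Slc38a5, 22.78% at 5000 UMIs (259 cells), was 15.86% at 3000 (290 cells), 40.76% at 8000 (211 cells) and 41.12% without thinning (304 cells). Cells below the thinning depth drop out, so these shares differ in their cells as well as in depth. The Ppy variance over mean, 706.8, was 309 without the 2 cells with more Ppy than Gcg and 399.5 at 3000 UMIs. The cause of these changes was not tested. Of 94 such values 57 stayed within 1.5 times or their interval and 37 moved, and these could not be labelled reversed. Among 1087 ratios of 145 named genes 324 moved. Only ratios of the 86 genes called higher or lower than in beta cells could be labelled reversed, and 0 were. No paired analysis was possible because each islet genotype has 1 library and only tumors carry replicate numbers. Depth limits low genes: 3 UMIs are 0.935 CPM in alpha cells, and the few stellate UMIs (90008) set the lower bounds of Edn3 and Irx2.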
